A study of Mus musculus with 8 samples.

Results

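Retinaldehyde dehydrogenases were followed through all 8 arrays of the series by their gene names in the scanner files: Aldh1a1, Aldh1a2, Aldh1a3, Aldh1a7 and Aldh1b1. These are 5 of 21198 named genes of the array and had 6 of its 41174 probes. They were chosen by a measured value, the much lower level of Aldh1a1 and Aldh1a7 in FLT3/ITD cells, so the FLT3/ITD differences of these genes are a description and were not tested. Retinaldehyde dehydrogenases oxidise retinaldehyde, which cells make from vitamin A (retinol), to retinoic acid. Retinoic acid binds the nuclear receptors of the RAR family, which pair with RXR receptors and change transcription, and enzymes of the CYP26 family remove it. Aldh1a1 is a cytosolic enzyme whose activity is widely used to mark blood progenitors, Aldh1a2 and Aldh1a3 are the other 2 main enzymes of this step, Aldh1a7 is a close rodent relative of Aldh1a1 with little known activity on retinaldehyde, and Aldh1b1 is a mitochondrial enzyme that also takes acetaldehyde.

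The RNA came from Ba/F3, a mouse pro-B cell line that grows in IL3, made to carry FLT3 in its wild type form or in a form with an internal tandem repeat (FLT3/ITD). The FLT3 protein is a growth factor receptor on early blood cells, and the repeat makes it signal without its ligand. All cells had been kept in serum with IL3, were washed, and spent 4 h in medium with albumin and no serum, with or without 100 ng/ml of recombinant mouse Cxcl12, the chemokine that binds Cxcr4. The 4 groups were thus wild type FLT3, wild type FLT3 with Cxcl12, FLT3/ITD and FLT3/ITD with Cxcl12, with 2 arrays each. Set 1 and set 2 are the 2 slides named in the file headers, and each held 1 array of every group. The label of the FLT3/ITD arrays is N51 in set 1 and N78 in set 2, so the form of the repeat and the slide cannot be told apart. How the FLT3 genes were introduced, whether a line is 1 clone and whether arrays of a group are separate cultures is not given in the sources used here, so p-values measure the spread between these arrays, which may be technical.

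The share of probes well above background ran from 49.0% to 55.0% over the arrays, and the number of arrays limits the precision. Of the 13 pro-B cell markers, 6 were tested and Cd79a, Cd79b, Vpreb1, Vpreb2 and Ptprc were above background on all 8 arrays, while Ebf1, Pax5, Igll1, Rag1, Rag2 and Il7r were above it on 0 of 8. Of 12 mast cell and basophil markers, 10 were tested. Arrays of 1 slide resembled each other, and differences within a slide are given beside the mean of a named gene wherever the slides differed in sign, and for each gene that passed.

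Of the 5 genes, Aldh1a1 and Aldh1a7 were measured above background and the other 3 were not. Aldh1a1 (probe A_51_P334942, mm9 chr19:20717764-20717823, plus strand) was well above background on 6 of 8 arrays. These were the 4 wild type FLT3 arrays and the 2 FLT3/ITD arrays of set 2. Aldh1a7 (probe A_51_P383399, mm9 chr19:20767553-20767612, minus strand) was above background on the 4 wild type FLT3 arrays and on 0 of the 4 FLT3/ITD arrays. None of the 6 probes was saturated.

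The probes of these 2 related genes were compared with each other as sequences. The first 30 of the 60 bases of each probe are shown, with no part marked.
Aldh1a1 probe: gactagttgtgacttaagctctgtccctca
Aldh1a7 probe: ttccttgaactatgtaccatgcatgataac
The longest run that both 60-base probes shared was 8 bases. Side by side 13 of 60 bases were the same, and 21 at the offset with most. Neither probe shared a 16-base word with any of the other 41173 probes. Whether either probe also matches the transcript of the other gene was not tested.

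The other 3 genes gave no measured level in any group. Aldh1a2, which makes most retinoic acid in the early embryo, had 1 probe (A_52_P58145, mm9 chr9:71143931-71143990, plus strand) with intensities of 5.52 to 15.2. Aldh1a3 had 2 probes on the minus strand (A_52_P87843, mm9 chr7:73535785-73535844, and A_52_P113518, mm9 chr7:73553907-73553966). The first read 2.84 to 20.9 and the second 3.33 to 7.85. Aldh1b1 (A_51_P510418, mm9 chr4:45816960-45817019, plus strand) read 3.95 to 19.5. Each of these 4 probes was well above background on 0 of 8 arrays, so their values have no order and no difference is given. The nearest to the limit was Aldh1b1 on the FLT3/ITD array of set 2 without Cxcl12, at a log2 level of -4.79 where the dimmest probe above background read -4.75. The log2 level here and below is the log2 intensity minus the 75th percentile of the same array.

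**Figure D1:**
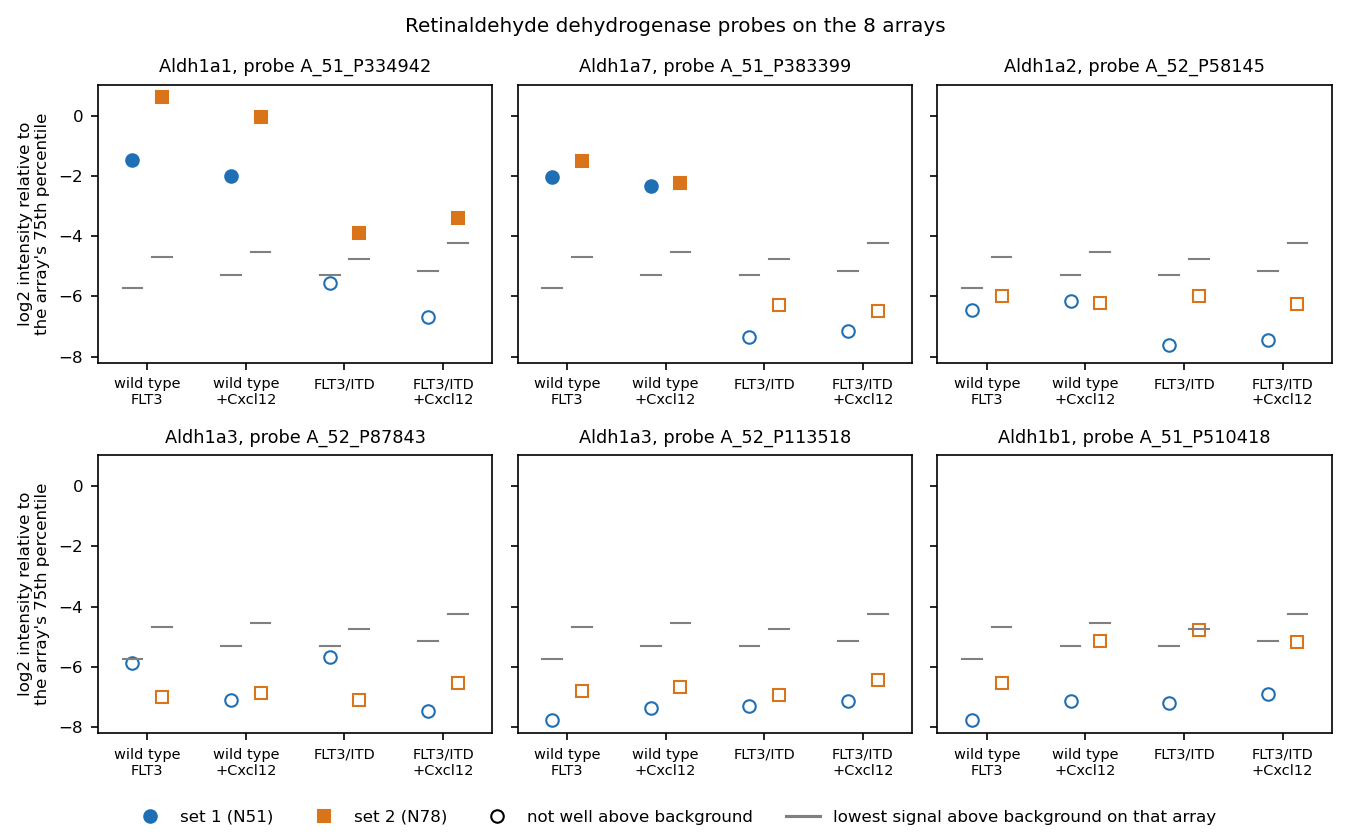
Each panel shows 1 probe, with the log2 intensity relative to the 75th percentile of the array on the vertical axis and the 4 groups of 2 arrays on the horizontal axis; circles are set 1 (N51) and squares set 2 (N78), open symbols are not well above background, and grey bars give the dimmest signal above background on that array. Aldh1a1 and Aldh1a7 stand above the bars on all 4 wild type FLT3 arrays, Aldh1a1 also on the 2 FLT3/ITD arrays of set 2, and the other 4 probes on none.

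Aldh1a1 was high in wild type FLT3 cells and low in FLT3/ITD cells in both sets. In set 1 its intensity was 335 in wild type FLT3 cells and 269 with Cxcl12, against 22.6 in FLT3/ITD cells and 10.8 with Cxcl12. In set 2 it was 560.3 and 470 in wild type FLT3 cells, against 36.1 and 56.9 in FLT3/ITD cells. Every wild type FLT3 array was above every FLT3/ITD array, and the groups did not overlap. The same contrast chose this gene. Here and below, the share of all genes without such overlap was not counted, so nothing is read from it. On the log2 scale the wild type FLT3 arrays lay between -2.01 and 0.61, with a mean of -0.73 ± 1.22 (SD, n = 4). The FLT3/ITD arrays lay between -6.69 and -3.40, with a mean of -4.89 ± 1.51 (SD, n = 4). Much of both SDs is a difference between the slides, described further on.

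The fitted difference of Aldh1a1, FLT3/ITD minus wild type averaged over both media, was -4.15 on the log2 scale (SE 0.28), with -4.38 in set 1 and -3.93 in set 2. It was -4.30 (SE 0.39) without Cxcl12 and -4.01 (SE 0.39) with it. Since 2 of the 4 FLT3/ITD arrays were not above background, the fold is also given as a bound, in which each dim array counts at no less than its dimmest probe above background. That level is a convention, since some probes not marked as above background read higher. A probe of Bco1 did on the FLT3/ITD array of set 2 without Cxcl12 (-4.55, dimmest probe above background -4.75). By that bound Aldh1a1 was at least 13.0-fold lower in FLT3/ITD cells. Each fold given as at least, here and below, holds under that convention. In set 2, where both sides were measured, it was 22.8-fold lower without Cxcl12 and 10.2-fold lower with it. In set 1 it was at least 14.1-fold and at least 8.75-fold lower. In bulk RNA, fewer cells with a transcript and less of it per cell cannot be told apart.

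Aldh1a7 showed the same separation, with no FLT3/ITD array above background. In set 1 its intensity was 229 in wild type FLT3 cells and 214 with Cxcl12, against 6.65 and 7.92 in FLT3/ITD cells. In set 2 it was 129.8 and 103 in wild type FLT3 cells, against 6.88 and 6.69 in FLT3/ITD cells. The 4 wild type FLT3 arrays spanned log2 levels of -2.34 to -1.50, with a mean of -2.03 ± 0.38 (SD, n = 4), and did not overlap with the FLT3/ITD arrays. The same limit as for Aldh1a1 holds, since the same contrast chose Aldh1a7.

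The fitted average difference of Aldh1a7 was -4.78 (SE 0.27), with -5.04 in set 1 and -4.52 in set 2, but its low side is background. By the bound Aldh1a7 was at least 7.08-fold lower in FLT3/ITD cells, at least 9.57-fold without Cxcl12 and at least 5.24-fold with it. Ranked by the fitted difference from the lowest of 12075 genes, Aldh1a7 was number 3 and Aldh1a1 number 6. In that comparison 2.99% of all genes passed the test in the lower direction and 7.78% in either. Nothing is read from the position of the 2 genes against this share, because the same contrast chose them. With normexp background correction, which lifts dim signals, the fitted differences were -2.34 for Aldh1a1 and -2.21 for Aldh1a7.

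**Figure D2:**
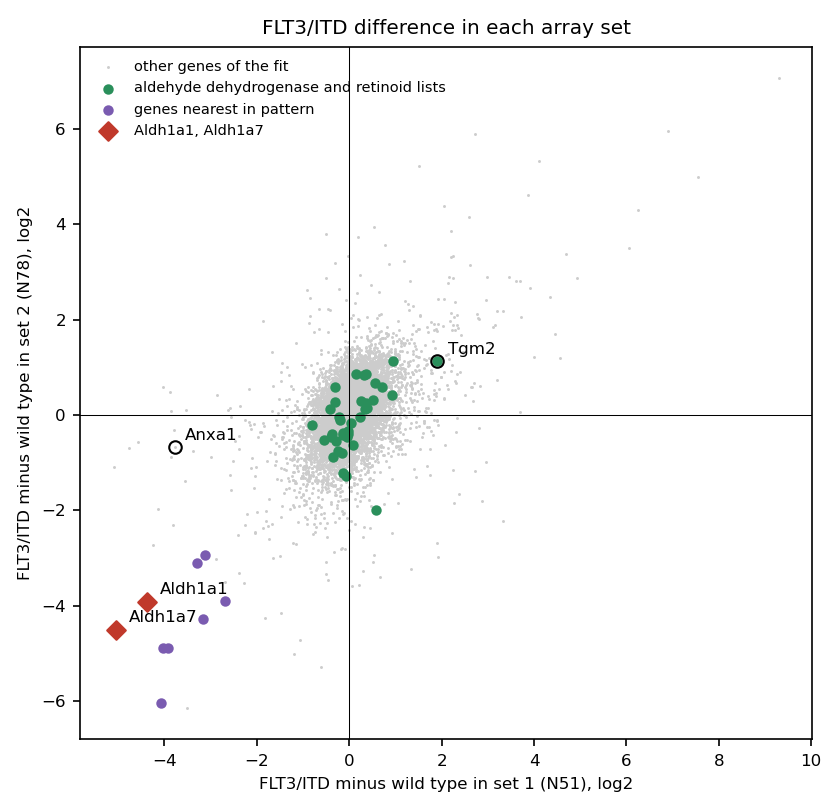
Each point is 1 of 12075 genes, placed by its log2 difference, FLT3/ITD minus wild type averaged over both media, in set 1 (horizontal axis) and in set 2 (vertical axis). Aldh1a1 (-4.38 and -3.93) and Aldh1a7 (-5.04 and -4.52) lie in the lower left corner with the genes nearest to them in pattern, while the genes of the aldehyde dehydrogenase and retinoid lists lie nearer to the origin, with Cyp2s1 (0.57 and -2.001) and Tgm2 (1.91 and 1.14) among those farther out; Anxa1 (-3.78 and -0.66) lies to the left.

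The slides set Aldh1a1 apart from Aldh1a7. Aldh1a1 was 2.03 log2 units higher in set 2 than in set 1 in wild type FLT3 cells, a step above that of 96.2% of genes. In FLT3/ITD cells it was 2.48 higher, above 98.4% of genes, although the set 1 side was below background there. For Aldh1a7 the step in wild type FLT3 cells was 0.32, above that of 64.2% of genes. The difference between FLT3/ITD and wild type cells was taken within each slide, and for both genes it had the same sign on both slides. Whether the step of Aldh1a1 belongs to the slide, the scan or the cells cannot be told apart.

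The other question of the design was whether Cxcl12 changed these mRNAs, which the choice of genes did not use. In wild type FLT3 cells Aldh1a1 with Cxcl12 differed from that without by -0.53 in set 1 and -0.67 in set 2. The fitted difference was -0.60 (SE 0.39, 95% interval -1.48 to 0.29), and it did not pass (limma adjusted p = 0.806). Aldh1a7 differed by -0.31 and -0.74 in wild type FLT3 cells, with a fitted difference of -0.53 (SE 0.38, interval -1.38 to 0.32, limma adjusted p = 0.832). The value with Cxcl12 was thus below the other in 2 of 2 pairs for both genes, and both intervals span a fall of more than 1 log2 unit as well as no change. Over all genes 60.3% had the same sign on both slides in this comparison.

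In FLT3/ITD cells Aldh1a1 with Cxcl12 differed by -1.12 in set 1, where it was below background, and by 0.50 in set 2, where it was above. The fitted value was -0.31 (SE 0.39, interval -1.19 to 0.57, limma adjusted p = 0.841). Averaged over both kinds of cell the Cxcl12 difference of Aldh1a1 was -0.45 (SE 0.28, interval -1.08 to 0.17, limma adjusted p = 0.483). The difference between the 2 Cxcl12 responses, FLT3/ITD minus wild type, was 0.29 (SE 0.56, interval -0.96 to 1.54, limma adjusted p = 1.0). These fitted values rest in part on the FLT3/ITD arrays of set 1, where Aldh1a1 was below background. Neither a response of FLT3/ITD cells nor its absence is read from them. Aldh1a7 has no Cxcl12 value in FLT3/ITD cells, where all 4 arrays were below background.

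By group mean, Aldh1a1 therefore ran from wild type FLT3 through wild type FLT3 with Cxcl12 to the 2 FLT3/ITD groups. The wild type FLT3 pair differed by -0.60 (SE 0.39), which did not pass the test. The 2 FLT3/ITD groups are not ordered, since their set 1 arrays were below background. With Cxcl12 in wild type FLT3 cells 0 of the 2 genes passed and 0 had an unadjusted p under 0.05, against 7.58% of all genes with such a p. Aldh1a1 neither passed nor had such a p in the other 3 Cxcl12 comparisons, which rest in part on readings below background. Over all genes limma called 0.0745% for Cxcl12 in wild type FLT3 cells, 0.621% for the average, and 0 of 12075 both in FLT3/ITD cells and for the difference of responses. In the last 2 comparisons 1300 and 213 genes had an unadjusted p under 0.05.

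Aldh1a1 and Aldh1a7 are neighbours on chromosome 19, with 0 annotated genes between them in RefSeq (GRCm38.p6). RefSeq lists 2 starts for Aldh1a1 and 1 for Aldh1a7, and the 250 bases before the second start of Aldh1a1 and before that of Aldh1a7 are shown because they hold a long identical stretch. The capitals mark the run of 65 bases that both share, whose first base is at -94 from the start in each.
Aldh1a1, second start, GRCm38.p6 chr19:20601718-20601967, plus strand: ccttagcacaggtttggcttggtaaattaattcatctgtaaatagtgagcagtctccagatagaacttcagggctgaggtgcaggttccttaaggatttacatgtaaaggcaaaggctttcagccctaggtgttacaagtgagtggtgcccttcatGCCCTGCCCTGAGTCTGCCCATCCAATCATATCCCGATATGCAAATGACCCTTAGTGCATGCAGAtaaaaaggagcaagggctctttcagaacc
Aldh1a7, GRCm38.p6 chr19:20727557-20727806, minus strand: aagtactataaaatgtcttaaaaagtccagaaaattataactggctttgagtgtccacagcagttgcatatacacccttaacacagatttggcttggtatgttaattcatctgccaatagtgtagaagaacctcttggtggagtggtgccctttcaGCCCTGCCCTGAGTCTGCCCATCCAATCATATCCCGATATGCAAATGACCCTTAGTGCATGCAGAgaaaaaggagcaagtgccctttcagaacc
In a gapped alignment of the 2 stretches, 47 of the 50 Aldh1a1 bases nearest to the start were identical and 47 of the next 50. In the farthest window of Aldh1a1 it was 26 of 50. Over the whole of that alignment, 176 of 268 columns (65.7%) were identical. The other 9 pairs among the 5 promoters of Aldh1a1 (both starts), Aldh1a2, Aldh1a7 and Aldh1b1 had 37.7% to 50.9% identical columns and no shared run above 10 bases.

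For 8 short motifs both strands of these promoters were searched. The shared run holds the octamer ATGCAAAT, with its first base at -56 from the start in both genes, and the CCAAT box, with its first base at -72. The octamer is present in 1.6% of 32851 mouse promoters of this length and CCAAT in 33.8%. Aldh1a2, which was not above background, also has the octamer, at -84. The AP-1 site TGACTCA was found before the first start of Aldh1a1 and in 4.46% of promoters. The GATA factor site AGATAA stood before its second start, across the end of the shared run, and in 9.99%. The letters TATAAA, searched for the TATA box, were matched before Aldh1a7 only far from the start, at -244, and in 12.4% of promoters. The STAT site TTCNNNGAA (7.02%), the receptor half-site AGGTCA (14.0%) and TTGCGCAA (C/EBP, 0.164%) were in none of the 5 windows. Such matches describe the sequence and no binding was measured.

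The genes around the pair were looked up after these values were seen. Of the 12 protein-coding genes placed next to the pair, 9 were in the fit. Anxa1, the phospholipid-binding annexin A1 and direct neighbour of Aldh1a1, was lower in FLT3/ITD cells, with differences of -3.78 in set 1 and -0.66 in set 2 and a fitted difference of -2.22 (SE 0.58, limma adjusted p = 0.0487). Its call was lost in 13 of 19 alternatives, where the adjusted p reached 0.828. It was lost without the wild type FLT3 array (0.107), the FLT3/ITD array (0.117), the wild type array with Cxcl12 (0.139, difference -1.48) or the FLT3/ITD array with Cxcl12 (0.126) of set 1. It was also lost without the wild type FLT3 array (0.0842) or the FLT3/ITD array with Cxcl12 (0.0522) of set 2. On the other side of the pair Tmc1, a channel gene of the inner ear, differed by 0.02 (SE 0.27, limma adjusted p = 0.978; -0.01 in set 1 and 0.05 in set 2). The other 7 genes did not pass either, and the farthest from 0 was Gda, guanine deaminase, at -0.67 (SE 0.29, limma adjusted p = 0.177).

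**Figure D3:**
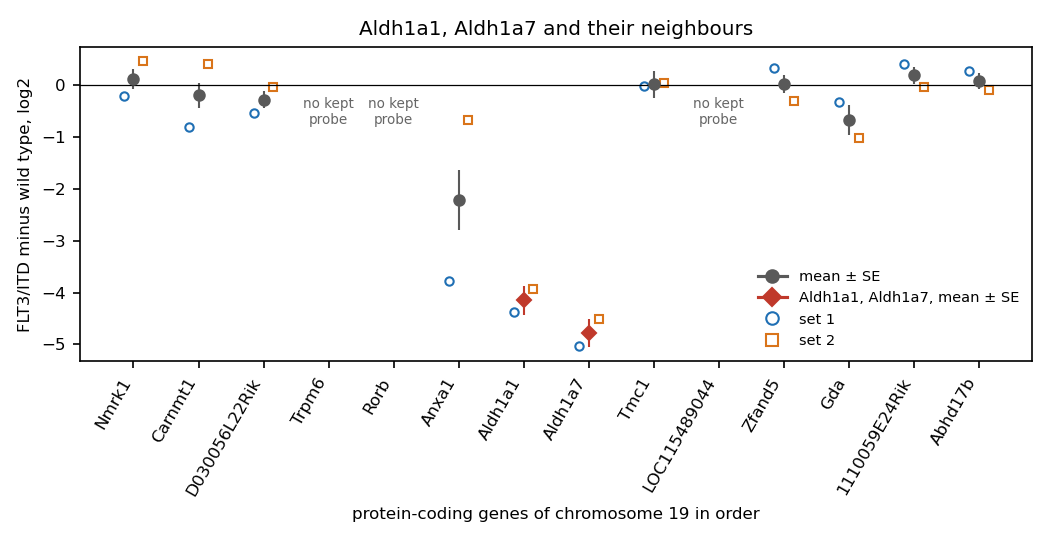
The log2 difference, FLT3/ITD minus wild type averaged over both media, is shown for Aldh1a1, Aldh1a7 and the protein-coding genes around them in chromosomal order (horizontal axis, not to scale), with filled symbols for the fitted mean ± SE, circles for set 1 and squares for set 2. Aldh1a1 (-4.15) and Aldh1a7 (-4.78) are lowest, Anxa1 (-2.22) differs between the sets, and the other measured neighbours lie between -0.67 and 0.20.

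The genes most like each of the 2 across the arrays were found by the root mean square distance between their 8 log2 values, centred within each slide, among 11154 genes above background on all wild type FLT3 arrays. The nearest to Aldh1a1 were A630038E17Rik (0.50), the orphan receptor gene Gpr160 (0.61), Far2 (0.64), which reduces fatty acyl-CoA to alcohols, Mcpt8 (0.68) and Clec7a (0.68). The nearest to Aldh1a7 were Clec7a (0.60), the receptor for fungal beta-glucan known as dectin-1, the basophil protease gene Mcpt8 (0.61), the axonemal dynein Dnah11 (0.74), A630038E17Rik (0.75) and the mast cell protease gene Mcpt4 (0.96). Likeness here is mostly a low level on the FLT3/ITD arrays, which is the contrast that chose Aldh1a1 and Aldh1a7, and it is a description. Of the 4 FLT3/ITD arrays Mcpt8 was above background on 4, Clec7a and Mcpt4 on 3, A630038E17Rik and Dnah11 on 2, Gpr160 on 1 and Far2 on 0. Aldh1a1 was above it on 2 and Aldh1a7 on 0, so the distances are in part distances between readings of background.

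Because Mcpt8 and Mcpt4 are mast cell and basophil markers, the whole list is given beside the fall of Aldh1a1 and Aldh1a7. In FLT3/ITD cells 4 of its 10 tested genes were lower and 0 higher, against 2.99% and 4.8% of all genes. Its median difference was -1.15 against 0.00 for all genes. Mcpt8 and Mcpt4 are in this count and median, and both were found by likeness to genes that the same contrast chose. Nothing is therefore read from the count or the median. The 4 lower genes were Mcpt8 (-4.40, SE 0.26), Mcpt4 (-3.30, SE 0.27), Cma1 (-2.90, SE 0.24), a chymase, and Cd200r3 (-1.98, SE 0.18), with limma adjusted p-values of 6.65e-05 to 0.000523. In set 1 and set 2 they differed by -3.92 and -4.89 (Mcpt8), -2.70 and -3.91 (Mcpt4), -2.28 and -3.52 (Cma1) and -1.67 and -2.28 (Cd200r3). The other 6 tested genes did not pass. Of these, Hdc differed by -1.51, Ms4a2 by -0.62, Gata2 by -0.48 and Fcer1a by -0.42. Ms4a2 and Fcer1a were above background on 2 of the 4 FLT3/ITD arrays. Cpa3 differed by -0.78, with 0.24 in set 1 and -1.80 in set 2. Mitf went the other way, by 0.50, with 0.63 in set 1 and 0.37 in set 2. The list was chosen with earlier results of these data known. The summed level of its 12 genes, in multiples of the 75th percentile of the array, was 207 to 362 in wild type FLT3 cells and 46.2 to 136 in FLT3/ITD cells. That sum is carried by the probes of Cma1 and Gata2, with mean log2 levels of 6.15 and 5.83, and without them the other 10 genes summed to 9.15 to 25.6 and 4.82 to 7.73. Of the 12 markers 9 to 10 were above background on each wild type FLT3 array and 8 to 10 on each FLT3/ITD array, and Kit and Tpsb2 on 0 of 8. For the pro-B cell list the summed level was 20.1 to 40.4 and 17.4 to 27.3, and 1 of 6 tested genes passed, Ptprc (CD45) at -0.55 (SE 0.13, limma adjusted p = 0.0373; -0.58 in set 1 and -0.53 in set 2). The pro-B cell sum is carried by Ptprc and Cd79b, and without them it was 0.489 to 0.589 and 0.403 to 0.711. The part of these markers in the values of Aldh1a1 and Aldh1a7 was not tested.

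The rest of the pathway was read from 6 lists with 74 other genes of aldehyde dehydrogenases and retinoid metabolism, of which 72 were on the array and 37 in the fit. In the average FLT3/ITD comparison 4 of the 37 were higher, 0 were lower and 33 did not pass. That is 10.8% called, against 4.8% of all genes called higher and 7.78% in either direction. The same shares of all genes stand beside the count of each single list below. Their median difference was -0.15, against 0.00 for all 12075 genes.

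Many of the 15 other aldehyde dehydrogenases work on aldehydes from alcohol, lipids and amino acids. Of the 10 tested, Aldh18a1, which makes the precursor of proline, was higher by 0.68 (SE 0.17, limma adjusted p = 0.0472), with 0.93 in set 1 and 0.42 in set 2. It ranged from 0.07 to 1.04 in wild type FLT3 arrays and from 0.99 to 1.68 in FLT3/ITD arrays, so the groups overlapped, though not within a slide. The call was lost when any 1 of the 8 arrays was left out, with adjusted p from 0.0529 to 0.180. Aldh2, the main mitochondrial acetaldehyde enzyme, differed by 0.27 (SE 0.16, limma adjusted p = 0.317), and its other kept probe by -0.09. Aldh9a1 differed by -0.02 (-0.31 in set 1 and 0.27 in set 2), Aldh16a1 by -0.13 and Aldh4a1 by -0.26, none of which passed, and the median of the 10 was -0.14. The other kept probes of Aldh9a1 and Aldh16a1 differed by 0.12 and 0.31.

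Of the 19 genes listed for retinol and retinaldehyde conversion, 10 were tested, with a median of 0.22. Rdh13, a mitochondrial retinol dehydrogenase, was higher by 0.61 (SE 0.16, limma adjusted p = 0.0456), with 0.55 in set 1 and 0.67 in set 2, but its other kept probe differed by -0.20. The call was lost without any 1 of the 8 arrays, with adjusted p from 0.0718 to 0.225. Adh5 differed by 0.49 (0.14 and 0.85 in the 2 sets), Rdh11 by 0.41 and Rdh14 by 0.30, and none of them passed. The other kept probe of Rdh14 differed by -0.19. Dhrs3, which turns retinaldehyde back to retinol, differed by -0.67, which is -0.06 in set 1 and -1.27 in set 2, and did not pass. Rdh10, the enzyme that makes most retinaldehyde in the embryo, was named after its value was seen and differed by 0.61 (SE 0.18, limma adjusted p = 0.0694), with 0.37 and 0.86 in the 2 sets. Of the 14 uptake, storage and binding genes 5 were tested and 0 passed. Stra6, the receptor that takes up retinol, differed by -0.67 (-0.13 in set 1 and -1.21 in set 2) and Dgat1, which can esterify retinol, by -0.25. Fabp5, a fatty acid binding protein that also carries retinoic acid, differed by 0.58 and Bco1, which cleaves beta-carotene to retinaldehyde, by -0.62.

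Downstream, 8 of 12 receptor and coregulator genes were tested and 0 passed. Rarg (-0.18) and Rxrb (0.09, with 0.23 in set 1 and -0.05 in set 2) were the receptors in the fit and are named for that reason. Their other kept probes differed by -0.49 (Rarg) and by 0.46 (Rxrb, with 0.62 in set 1 and 0.30 in set 2). Rara and Rxra were above background on no more than 1 array per probe, and Rarb and Rxrg on 0. Among coregulators Ncor1 differed by -0.38, Ncoa1 by -0.48 and Nrip1 by -0.53. Other kept probes of Ncor1 ran from -0.40 to 0.43. Of the genes that break down retinoic acid, Cyp26a1 (-0.42) and Cyp2s1 (-0.72) were tested and did not pass. The mean of Cyp2s1 joins opposite signs, 0.57 in set 1 and -2.001 in set 2.

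Of 16 genes that retinoic acid is known to induce 6 were tested. Of these, 2 were higher and 0 lower, against 4.8% and 2.99% of all genes, and the median of the 6 was -0.48. Tgm2, transglutaminase 2, was higher on both slides, by 1.91 in set 1 and 1.14 in set 2, with a fitted difference of 1.52 (SE 0.24, limma adjusted p = 0.00880). Within set 1 its log2 level was 0.56 and 0.76 in wild type FLT3 cells and 2.30 and 2.83 in FLT3/ITD cells, and within set 2 it was -1.63 and -1.88 against -0.28 and -0.95. The groups did not overlap within a slide, and the share of all genes for which this holds was not counted. Without the FLT3/ITD array of set 2 that had no Cxcl12 the call was lost (adjusted p = 0.0637), and with normexp the difference was 1.01.

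Stra8, which germ cells switch on with retinoic acid, was higher by 1.03 (SE 0.21, limma adjusted p = 0.0216), with 0.94 in set 1 and 1.12 in set 2. Its 4 wild type FLT3 arrays lay between -3.73 and -2.92 and its 4 FLT3/ITD arrays between -2.48 and -2.01, with no overlap. The share of all genes without overlap was not counted. The call was lost in 9 of 20 alternatives. With normexp the difference fell to 0.06 (limma adjusted p = 0.935), and with normexp fitted without outlier spots to 0.58 (0.128). With no filter and without the slide as block the difference stayed at 1.03, with adjusted p of 0.102 and 0.743. Leaving out 1 array ended it for the wild type array with Cxcl12 (0.0752) and the FLT3/ITD array with Cxcl12 (0.0587) of set 1. In set 2 it ended for the wild type array (0.0794), the FLT3/ITD array (0.140) and the wild type array with Cxcl12 (0.0978). The other 4 tested genes of this list, Nrip1, Dhrs3, Stra6 and Cyp26a1, also stand on the lists above.

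For Cxcl12, as the mean of both kinds of cell, limma called 0 of the 37 genes of the 6 lists, against 0.621% of all genes. An unadjusted p under 0.05 was found for 5 of the 37 (13.5%), against 15.5% of all genes. Their median difference was 0.02, equal to that of all genes at this precision. The 4 genes that were higher in FLT3/ITD cells differed with Cxcl12 by -0.05 (Tgm2, 0.37 in set 1 and -0.47 in set 2), 0.22 (Stra8), 0.32 (Rdh13) and -0.13 (Aldh18a1).

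**Figure D4:**
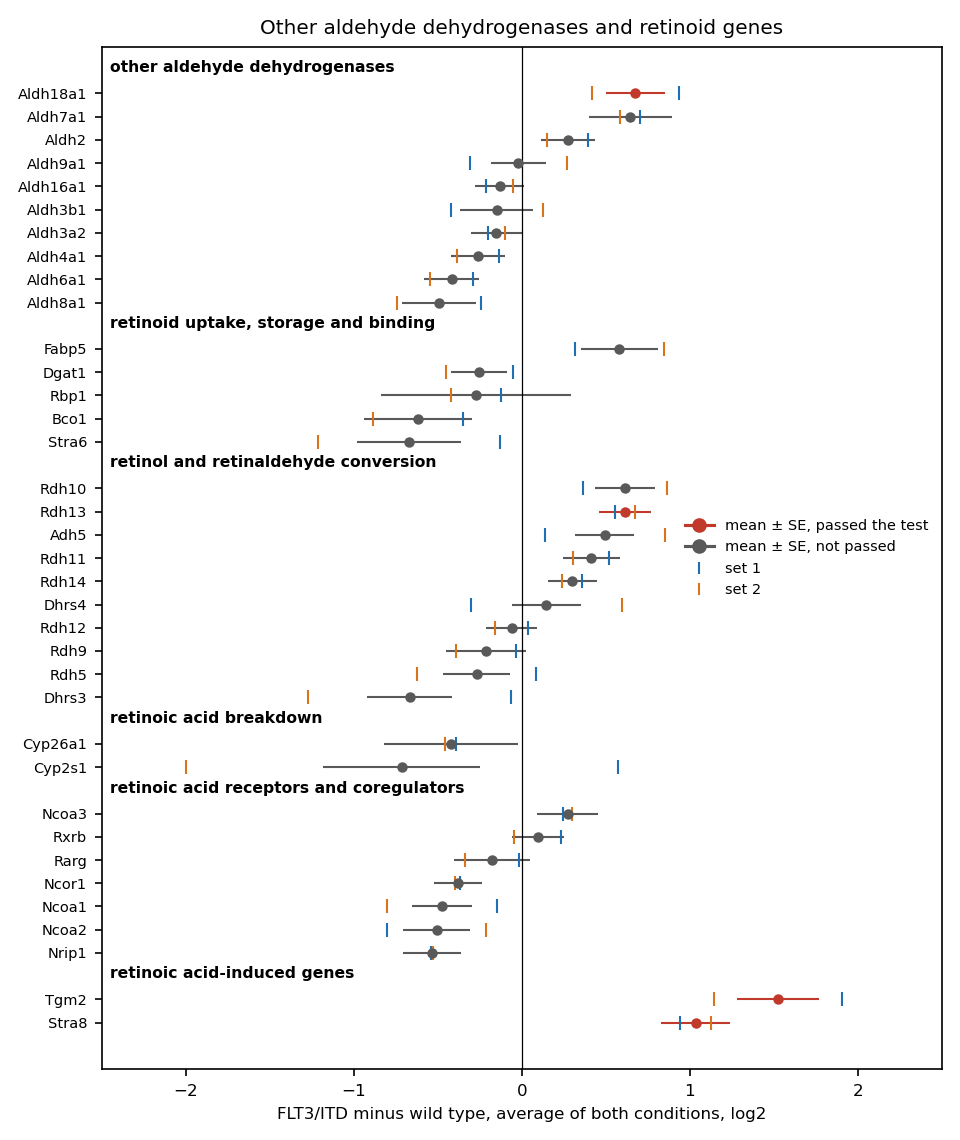
For 36 of the 37 tested genes of the 6 lists the log2 difference, FLT3/ITD minus wild type averaged over both media, is plotted on the horizontal axis as the fitted mean ± SE, with ticks for set 1 and set 2; red marks the 4 genes that passed at an adjusted p under 0.05, and a gene of several lists is drawn once. Tgm2 (1.52), Stra8 (1.03), Aldh18a1 (0.68) and Rdh13 (0.61) are the red points, and no gene drawn reaches the size of Aldh1a1 (-4.15) or Aldh1a7 (-4.78).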

How the data were processed

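Total RNA of 8 Ba/F3 samples was hybridised to Agilent mouse arrays with 1 dye (Cy3). The deposited intensity columns are, per the file headers, signals from which Agilent Feature Extraction (9.5.1.1 in set 1, 10.7.3.1 in set 2) had subtracted the background of each array. The arrays had not been scaled to each other. The authors' deposited normalized tables hold linear intensity values of the same arrays scaled to each array's median, and served as an alternative. The probe coordinates are those of the set 2 headers.

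Here log2 of the processed intensity was taken and the 75th percentile of each array (937 to 1109 in set 1, 367 to 600.0 in set 2) subtracted. Control spots were dropped, the 93 to 203 outlier spots of each array became missing values, and repeat spots were averaged. Both arrays of some group had to be well above background for a probe to stay (21113 of 41174 did). The kept probe with the highest mean stood for its gene, which gave 12075 genes. Names came from RefSeq by accession (27698 probes), symbol (5184) or synonym (690), or from the file alone (1360), and 6242 probes had none.

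One model over all genes was fitted with limma 3.58.1 (R 4.3.3, data.table version 1.17.8), with 4 group means, the slide as block and a trended eBayes prior, on 3 residual degrees of freedom. Pairing was by the slide of the headers, and arrays of a slide shared their deviations from the group means (correlations of 0.730 to 0.882). The threshold was an adjusted p (Benjamini-Hochberg over all genes) under 0.05, and "higher" and "lower" of a list's count are used of these alone. A gene is said to be not above background from the scanner software's own flag. Sequences are from the scanner files and RefSeq, aligned with Biopython 1.88, and RefSeq starts were matched for 4 of the 5 genes.

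The genes, lists and comparisons were chosen with earlier results of these data known. Named genes were every probe of the 5 genes, every list gene that passed, up to 4 others per list with the highest mean signal, and the 5 genes nearest to Aldh1a1 and to Aldh1a7. Exceptions are marked, and 1 list gene is not reported here, though the counts hold it. Alternatives were normexp, median, quantile and the authors' scaling, other filters and blocks, every probe a row, outlier spots kept, no trend and each array left out.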

Additional observations from a re-analysis of the deposited data

How the results depend on the processing

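Aldh1a1 and Aldh1a7 were lower in FLT3/ITD cells under every alternative that gave a value, and under these neither passed in the Cxcl12 comparison within wild type FLT3 cells, where the lowest adjusted p was 0.545 for Aldh1a1 and 0.673 for Aldh1a7. Aldh1a1 also passed in none of the other 3 Cxcl12 comparisons (lowest adjusted p 0.101), which rest in part on FLT3/ITD arrays below background. A filter on probes above background on all 8 arrays removed both genes. With normexp background correction, which adds an offset of 50 to every intensity, the FLT3/ITD differences were -2.34 for Aldh1a1 and -2.21 for Aldh1a7, and the Cxcl12 difference of Aldh1a7 in wild type FLT3 cells turned to 0.37 (limma adjusted p = 0.779). On the wild type FLT3 array with Cxcl12 of set 2, 4 spots lay under their local background by more than 1000, the farthest at -142227, and the background mean of the normexp fit was -1149, against -18.2 to 8.10 on the other arrays. Fitted without spots marked as outliers, an alternative added after this was seen, normexp gave -2.29, -1.84 and -0.36. Without 1 array the FLT3/ITD difference of Aldh1a1 ran from -4.50 to -3.81, its Cxcl12 difference in FLT3/ITD cells from -1.002 to 0.38, and the difference of the Cxcl12 responses from -0.41 to 0.98.

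Of the 6 lists, 4 genes were higher in FLT3/ITD cells. This number was 5 with median scaling and with the authors' tables, 3 with the slide as a random block or outlier spots kept, 2 with either normexp fit, quantile scaling, every probe a row or no trend, 1 with no filter, and 0 to 3 without 1 array, with 0 to 1 lower. Without the slide as replicate block it was 0, and 8 genes passed in all in place of 940. Over all genes 202 to 1006 passed without 1 array, 367 with normexp over all spots, 552 with no trend and 232 with no filter. For Cxcl12 the 75 calls became 0 to 179, and 6 to 205 without 1 array. The median of all genes moved to 0.13 with median scaling and the authors' tables. With no filter it was 0.10 for FLT3/ITD and 0.12 for Cxcl12. No value below background measures a level, which limits Aldh1a2, Aldh1a3, Aldh1b1, the FLT3/ITD side of Aldh1a7 and the FLT3/ITD arrays of set 1 for Aldh1a1.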
